A study of Mus musculus with 12 samples.

Results

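The TRIM family was taken as every gene whose symbol is Trim followed by a number and at most 1 lower-case letter, which gave 51 of the 16399 gene symbols in the deposited tables. TRIM (tripartite motif) proteins are a family of mostly E3 ubiquitin ligases: a RING domain that brings in the ubiquitin-carrying enzyme, 1 or more B-box zinc fingers and a coiled coil are followed by a variable C-terminal part that binds the target. Many members with a C-terminal SPRY domain act in antiviral defence and are switched on by interferons, while members with a PHD finger and bromodomain bind chromatin in the nucleus. Interferon gamma acts through its receptor, the kinases Jak1 and Jak2 and transcription factors such as Irf1. Antibodies to PD-1, a brake on activated T cells, are given in cancer therapy to lift that brake.

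RNA was sequenced from MC38, a mouse colon carcinoma line grown as a tumour in C57BL/6 albino mice. After dissociation, pieces of 40 to 100 µm were cultured in 2.8 mg/mL collagen in microfluidic culture chips with 300 µL of medium and treated for 6 days. The 12 samples fall into 4 groups of 3: IFNg (interferon gamma) at 100 ng/mL, aPD-1 (clone RMP1-14, 10 µg/mL) together with a CD8 antibody (clone 53-6.7, 10 µg/mL), aPD-1 alone at the same concentration, and control IgG (clone 2A3, 10 µg/mL). Libraries were made by exome capture from 250 ng of RNA. Nothing in the labels ties the 3 samples of any group to separate tumours, mice or chips, so the p-values measure the spread between samples, which may be technical.

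The data analysed are 5 tables of DESeq2 comparisons made by the authors, each with a mean normalized count over the 6 libraries of its 2 groups, a log2 fold change and its SE, and an adjusted p. They hold no value for a single sample, so no SD can be given for a level. A gene is called changed where the deposited adjusted p is under 0.05. The mean count of each group was recovered from the 5 overlapping means, after each table was given its own scale, and is called its level below. Levels are in normalized counts, are not divided by gene length, and are compared between groups for 1 gene at a time. The comparisons share samples: aPD-1 stands in 3 of them and IgG in 3, so agreement between them is not repeated evidence.

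Of the 51 members, 47 were listed in all 5 tables and 30 had means of at least 10 throughout. Another 8 (Trim17, Trim29, Trim34b, Trim40, Trim43b, Trim50, Trim67 and Trim72) had a mean under 1 wherever they were listed. These and Trim10 received no adjusted p in the 4 tables that made any call. Of all genes tested, 18.5% changed in aPD-1 against IgG and 14.8% in aPD-1+CD8 against aPD-1. The shares were 4.10% in IFNg against IgG and 15.5% in IFNg against aPD-1. The share of all genes that changed in at least 1 table was not computed, so the next counts have no matching background. In all, 16 members changed in at least 1 table. They include 10 of the 12 members placed in a list called interferon-linked here, and 6 of the 39 others. The listed members are known to respond to interferon or to act in its pathways, but the list is not complete. Trim8, which acts on Socs1, and Trim65, which acts on Mda5, were left among the 39 others. Neither was called in IFNg against IgG, and both were lower in IFNg than in aPD-1. The interferon-linked list was chosen with earlier results of these data known.

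The mean counts of a table summed to between 1.03e+07 and 1.16e+07, over 15306 to 15677 genes. The samples are bulk RNA, so fewer cells of a type and less RNA per cell cannot be told apart. Epithelial markers, which a colon carcinoma would carry, were near 0: 6 of 8 were in any table, and those in every table (Cdh1, Krt8 and Vil1) had levels of at most 5.83 in any group. Of 13 T and NK cell markers, 7 were in any table, and Cd3d and Gzmb, the pair in every table, stayed under 1. The summed level of 13 macrophage markers was 637 in IFNg, 409 in aPD-1+CD8, 316 in aPD-1 and 445 in IgG. Csf1r alone supplied 366 of the IFNg sum, against 27.7 in IgG, and had no p in the IFNg comparisons in the authors' deposited table. Without Csf1r the macrophage sums were 272, 381, 296 and 418 in the same order of groups.

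The letters around the starts of interferon-linked members are shown here because the IFNg results below fall on these genes. The core of the interferon-stimulated response element, a sequence bound by Irf factors, was searched on both strands as GAAA, any 2 bases, and GAAA. The windows ran from 250 bases before to 50 bases after each gene start in RefSeq (GRCm38.p6, which is not the mm9 build of the tables) and were found for 38 of the 51 members. The core was present in at least 1 window for 8 of these 38 members. Of all 32851 windows, each counted singly, 1131 held it (3.44%). Some members have several windows, so a share of members and a share of windows differ in unit. The core was in 7 of the 11 interferon-linked members with a window (Trim12a, Trim12c, Trim21, Trim26, Trim30a, Trim30d and Trim34a) and in 1 of the 27 others (Trim2). Trim6, Trim25, Trim34b and Trim56 had no match in the window, and Trim14 had no entry. The gamma-activated site, TTCNNNGAA, was in 2 of the 38 (Trim45 and Trim46), against 8.30% of all windows. Each line gives 60 bases, 5′ to 3′ along the gene's strand and ending at most 30 bases past the start, with the match in capitals; a match on the opposite strand reads TTTC, any 2 bases, and TTTC.
Trim21, chr7:102565453-102565512 (-): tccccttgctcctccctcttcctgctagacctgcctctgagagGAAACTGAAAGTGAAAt
Trim26, chr17:36836964-36837023 (+): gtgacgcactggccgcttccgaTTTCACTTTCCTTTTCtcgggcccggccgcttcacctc
Trim30a, chr7:104465195-104465254 (-): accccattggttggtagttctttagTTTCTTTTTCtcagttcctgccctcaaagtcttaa
Trim30d, chr7:104507856-104507915 (-): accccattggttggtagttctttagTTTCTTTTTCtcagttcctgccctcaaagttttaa
Trim12a, chr7:104315466-104315525 (-): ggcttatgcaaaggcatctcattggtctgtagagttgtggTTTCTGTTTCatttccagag
Trim12c, chr7:104353344-104353403 (-): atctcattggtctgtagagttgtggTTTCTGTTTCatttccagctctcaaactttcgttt
Trim34a, chr7:104244427-104244486 (+): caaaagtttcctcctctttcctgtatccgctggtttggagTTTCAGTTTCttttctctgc
The capitals in Trim21 and Trim26 cover 2 overlapping matches. The matched letters are the same in Trim30a and Trim30d and the same in Trim12a and Trim12c. Trim30a has a second window in the RefSeq table, which also holds a match. Of the 8 members that were higher in IFNg than in IgG, 6 held the core, against 2 of the 30 other members with a window.

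IFNg against IgG compares cultures given the cytokine with cultures given the control antibody for 6 days. The labels list no IgG for the IFNg samples, so the comparison does not isolate the cytokine. In this comparison 8 of the 40 members tested were higher and 1 was lower in IFNg; of all 11478 genes tested, 2.73% were higher, 1.38% lower and 4.10% changed in either direction. All 8 higher members were interferon-linked (8 of 11 tested), and the median log2 fold change of those 11 was 0.999 in the authors' deposited table, against 0.01 over all genes tested. Among the 29 other members tested, 0 were higher and 1, Trim63, was lower. Because the list was chosen with earlier results of these data known, this split is a description and not an independent test.

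**Figure D1:**
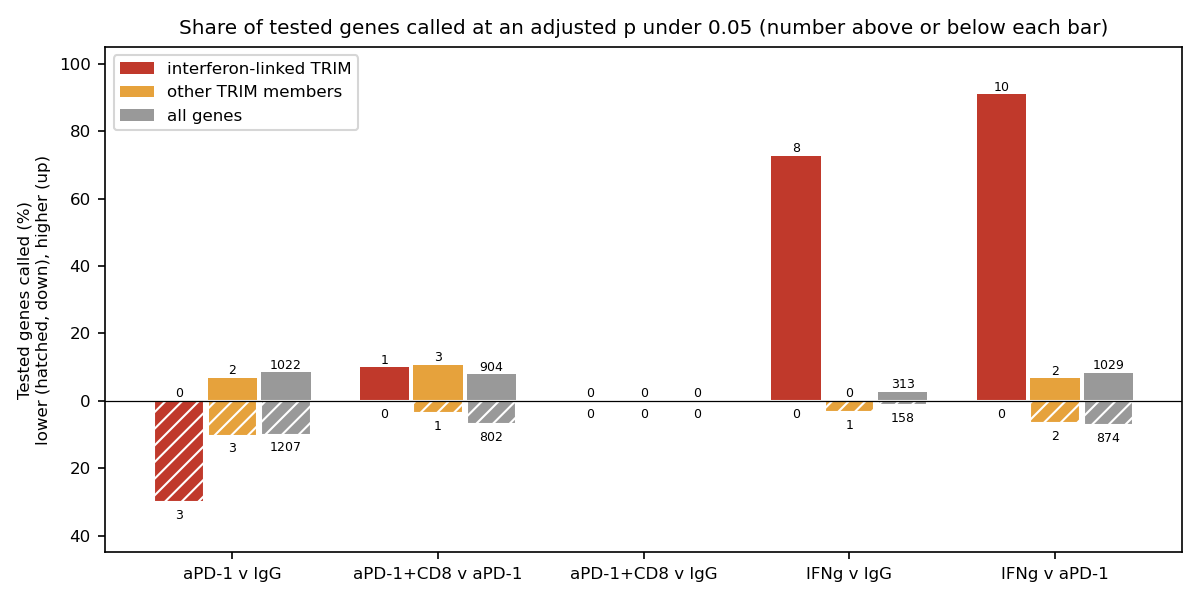
Share of tested genes that were called at an adjusted p under 0.05 (y axis, percent; upward bars higher and hatched downward bars lower in the group named first), for interferon-linked TRIM members, the other members and all genes in the 5 comparisons, with the number of genes at each bar. The interferon-linked bars reach 8 and 10 genes in the IFNg comparisons, and all bars are at 0 for aPD-1+CD8 v IgG. The interferon-linked list was chosen with earlier results of these data known.

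Trim30a and Trim30d are rodent SPRY members, and Trim30a in mouse cells restrains NF-kB signalling after Toll-like receptor stimulation. The level of Trim30a was 323 in IFNg, 68.7 in aPD-1+CD8, 30.2 in aPD-1 and 67.8 in IgG. IFNg was the highest group, aPD-1 the lowest, and the others nearly coincided. The log2 fold change of Trim30a in IFNg against IgG was 1.93 ± 0.19 (SE, n = 3 each) in the authors' deposited table, with a DESeq2 adjusted p of 5.8e-21. Trim30d had levels of 129, 26.3, 13.6 and 32.9 in IFNg, aPD-1+CD8, aPD-1 and IgG. Its log2 fold change in IFNg against IgG was 1.54 ± 0.23 in the authors' deposited table (DESeq2 adjusted p = 1.2e-09). Trim30d thus had the same order of highest and lowest group as Trim30a.

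Trim21 is a cytosolic receptor for antibody that sends antibody-coated particles to the proteasome. Its level was 84.5 in IFNg, 18.9 in aPD-1+CD8, 13.5 in aPD-1 and 17.5 in IgG. The IFNg level was 4.82-fold that of IgG, while the other three groups lay close together. The log2 fold change in the authors' deposited table was 1.66 ± 0.25 for Trim21 in IFNg against IgG (DESeq2 adjusted p = 1.9e-09). This deposited value is smaller than the log2 ratio of the recovered levels, 2.27, and the same held for the other large changes in this table. The deposited fold changes are therefore treated as shrunken toward 0.

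Trim12c, a mouse relative of the retroviral restriction factor TRIM5 of primates, had levels of 82.7 in IFNg, 26.7 in aPD-1+CD8, 23.9 in aPD-1 and 23.7 in IgG. Its log2 fold change in IFNg against IgG was 1.33 ± 0.24 in the authors' deposited table (DESeq2 adjusted p = 4.1e-06). Trim12a, from the same cluster, had levels of 33.0, 17.2, 12.6 and 14.7 in those groups and did not pass the test against IgG (0.59 ± 0.28, DESeq2 adjusted p = 0.36 in the authors' deposited table). Trim34a, whose human counterpart acts on retroviral capsids, had levels of 38.1, 8.27, 7.41 and 10.9, with a log2 fold change of 1.07 ± 0.28 in the authors' deposited table (DESeq2 adjusted p = 0.0043). In each of these the IFNg group was the highest. Trim34b, the neighbour of Trim12a and Trim12c, had a mean under 1 and received no adjusted p, and Trim6 was tested without passing (0.17 ± 0.21, DESeq2 adjusted p = 0.9 in the authors' deposited table).

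Reads of these genes may be shared between copies. In the longest coding transcripts, 41.3% of the 50-base windows of Trim34a also occur in another gene, namely Trim34b. The share was 32.7% for Trim12c and 23.5% for Trim12a, with Trim5 and with each other. It was 6.53% for Trim30a and 8.29% for Trim30d. Leaving out all members listed with a close copy removed Trim12c, Trim34a, Trim30a and Trim30d. Trim30a and Trim30d were on that list although their shares were low. The other 4 of the 8 higher calls stood: Trim21, Trim25, Trim26 and Trim56. In the RefSeq gene order, Trim6, Trim34a, Trim5, Trim12a, Trim34b and Trim12c follow each other on chromosome 7, and Trim30a and Trim30d lie next to each other 3 coding genes further on. This stretch of neighbours holds 4 of the 8 members that were higher in IFNg (Trim12c, Trim30a, Trim30d and Trim34a), and Trim21 lies further off on the same chromosome.

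Trim25 adds ubiquitin to the RNA sensor Rig-I (Ddx58) and is also modified by the ubiquitin-like protein Isg15. Its level was 452 in IFNg, 219 in aPD-1+CD8, 140.4 in aPD-1 and 217 in IgG. The log2 fold change of Trim25 in IFNg against IgG was 0.97 ± 0.16 in the authors' deposited table (DESeq2 adjusted p = 7.7e-08). Trim56, linked to sensing of cytosolic DNA, had its second highest level in aPD-1. Its levels were 180.1 in IFNg, 80.7 in aPD-1+CD8, 106.8 in aPD-1 and 79.7 in IgG, and it had a log2 fold change in IFNg against IgG of 0.999 ± 0.20 in the authors' deposited table (DESeq2 adjusted p = 3.1e-05). Trim26, encoded in the major histocompatibility region, had levels of 158, 98.7, 95.04 and 97.6 and the smallest of the 8 rises, 0.61 ± 0.19 in the authors' deposited table (DESeq2 adjusted p = 0.042). Without DESeq2's filter on low counts its adjusted p was 0.056. Trim14, a member without a RING domain that sits on mitochondria with the adaptor Mavs, did not pass (0.15 ± 0.28, DESeq2 adjusted p = 0.95 in the authors' deposited table).

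Trim63 (MuRF1), a ligase best known from the breakdown of muscle protein, was the 1 member lower in IFNg. Its level was 22.96 in IFNg, 60.01 in aPD-1+CD8, 42.8 in aPD-1 and 65.7 in IgG. IFNg was the lowest of the 4 groups. The log2 fold change of Trim63 in IFNg against IgG was -0.98 ± 0.26 in the authors' deposited table (DESeq2 adjusted p = 0.0084). Among the fibroblast markers 1 was higher (Dcn) and 3 were lower (Col1a1, Col3a1 and Fap) in IFNg, the summed level of 8 being 2926 in IFNg and 3131 in IgG. Of 12 macrophage markers tested, Mrc1 and Mertk were lower in IFNg, at -1.29 ± 0.278 and -0.863 ± 0.19 in the authors' deposited table (DESeq2 adjusted p = 0.000201 and 0.000338), and 0 were higher. The part of any other cell type in the TRIM values was not tested.

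**Figure D2:**
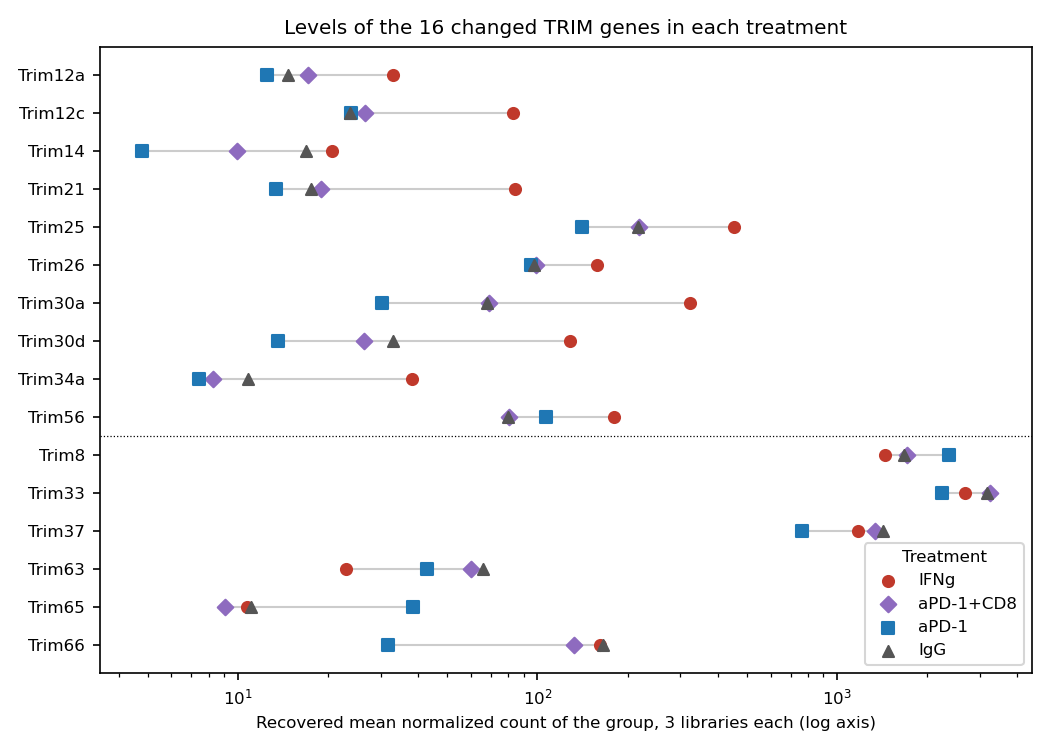
Level of each of the 16 changed members in the 4 groups (x axis, recovered mean normalized count of 3 libraries on a log axis; 1 symbol per group, no error available; interferon-linked members above the dotted line). IFNg is the highest group for all 10 interferon-linked members, and aPD-1 stands apart from the other three groups for Trim65 and Trim66; rows are not scaled for gene length and should not be compared with each other.

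The comparison of aPD-1 with IgG asks what the antibody did on its own. Of 39 members tested, 2 were higher and 6 lower in aPD-1. Over all 12024 genes tested 8.50% were higher, 10.0% lower and 18.5% changed in either direction, so the members' 20.5% changed was near the background. The lower members were Trim14, Trim30a, Trim30d, Trim33, Trim37 and Trim66, and the higher ones Trim8 and Trim65.

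Trim66 had the largest change. It is a PHD finger and bromodomain protein related to Trim24, Trim28 and Trim33, and is known to read marks on the tail of histone H3. Its level was 162 in IFNg, 132 in aPD-1+CD8, 31.8 in aPD-1 and 166 in IgG. The aPD-1 group stood alone at 5.21-fold below IgG, and the other three groups were close to each other. The log2 fold change of Trim66 in aPD-1 against IgG was -2.18 ± 0.24 (SE, n = 3 each) in the authors' deposited table (DESeq2 adjusted p = 2.4e-17).

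Trim37, a peroxisomal and centrosomal ligase lost in human mulibrey nanism, had levels of 1178 in IFNg, 1341 in aPD-1+CD8, 763 in aPD-1 and 1421 in IgG. Its log2 fold change in aPD-1 against IgG was -0.88 ± 0.14 in the authors' deposited table (DESeq2 adjusted p = 7.3e-09). Trim33, which acts on Smad4 in TGF-beta signalling, had levels of 2667, 3231, 2245 and 3163 in the same groups. Its log2 fold change was -0.49 ± 0.14 in the authors' deposited table (DESeq2 adjusted p = 0.0063). Both genes were lowest in aPD-1. The relatives of Trim33 and Trim66 did not pass the test: Trim24 had a log2 fold change of -0.24 ± 0.19 and Trim28, the corepressor of KRAB zinc finger proteins, one of 0.08 ± 0.15 in the authors' deposited table (DESeq2 adjusted p = 0.45 and 0.8).

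Trim65, a ligase that adds ubiquitin to the RNA sensor Mda5 (Ifih1), went the other way. Its level was 10.8 in IFNg, 9.03 in aPD-1+CD8, 38.5 in aPD-1 and 11.1 in IgG. The aPD-1 level was 3.47-fold that of IgG, and again the other three groups lay together. The log2 fold change of Trim65 in aPD-1 against IgG was 1.39 ± 0.35 in the authors' deposited table (DESeq2 adjusted p = 0.00078). Trim47 is the next coding gene and shares 3.82% of the exon bases of Trim65 on the same strand. Trim47 did not pass the test (0.46 ± 0.21, DESeq2 adjusted p = 0.13 in the authors' deposited table). Trim8, which raises NF-kB signalling and acts on Socs1, had levels of 1449 in IFNg, 1706 in aPD-1+CD8, 2359.7 in aPD-1 and 1678 in IgG, with a log2 fold change of 0.47 ± 0.15 in the authors' deposited table (DESeq2 adjusted p = 0.011).

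Of the interferon-linked members 3 of 10 tested were lower in aPD-1 and 0 were higher, against 10.0% and 8.50% of all genes tested. Trim30a had a log2 fold change of -1.01 ± 0.29 and Trim30d of -0.97 ± 0.36 in the authors' deposited table (DESeq2 adjusted p = 0.0056 and 0.043). Trim14 had levels of 20.7 in IFNg, 9.95 in aPD-1+CD8, 4.80 in aPD-1 and 17.0 in IgG, and a log2 fold change of -1.07 ± 0.41 in the authors' deposited table (DESeq2 adjusted p = 0.045). Nans overlaps 31.3% of the exon bases of Trim14 on the opposite strand, and without strand information reads of the pair cannot be told apart. Nans itself had a log2 fold change of -0.06 ± 0.17 in the authors' deposited table (DESeq2 adjusted p = 0.88). Trim25 narrowly missed the threshold (-0.59 ± 0.24, DESeq2 adjusted p = 0.066 in the authors' deposited table), and Trim12c was at -0.02 ± 0.35 in the authors' deposited table, with a 95% interval of -0.71 to 0.67.

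Several of these calls depend on the spread of the test scores. Divided by their robust SD of 1.31, the scores left 3 of the 8 calls: Trim37, Trim65 and Trim66. The adjusted p was then 0.073 for Trim30a, 0.078 for Trim33, 0.13 for Trim8, and 0.22 for both Trim14 and Trim30d. Other genes moved in the same comparison: 4 of 7 fibroblast markers tested were higher in aPD-1, with a summed level of 9689 in aPD-1 and 3131 in IgG, and 7 of 20 ribosomal protein genes were lower, summing to 104037 in aPD-1 and 132133 in IgG. Of the macrophage markers, Cd14 was higher and Mertk lower in aPD-1. Of 3 epithelial markers tested, 1 (Krt19) was lower and 0 were higher. The part of these in the TRIM values was not tested.

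**Figure D3:**
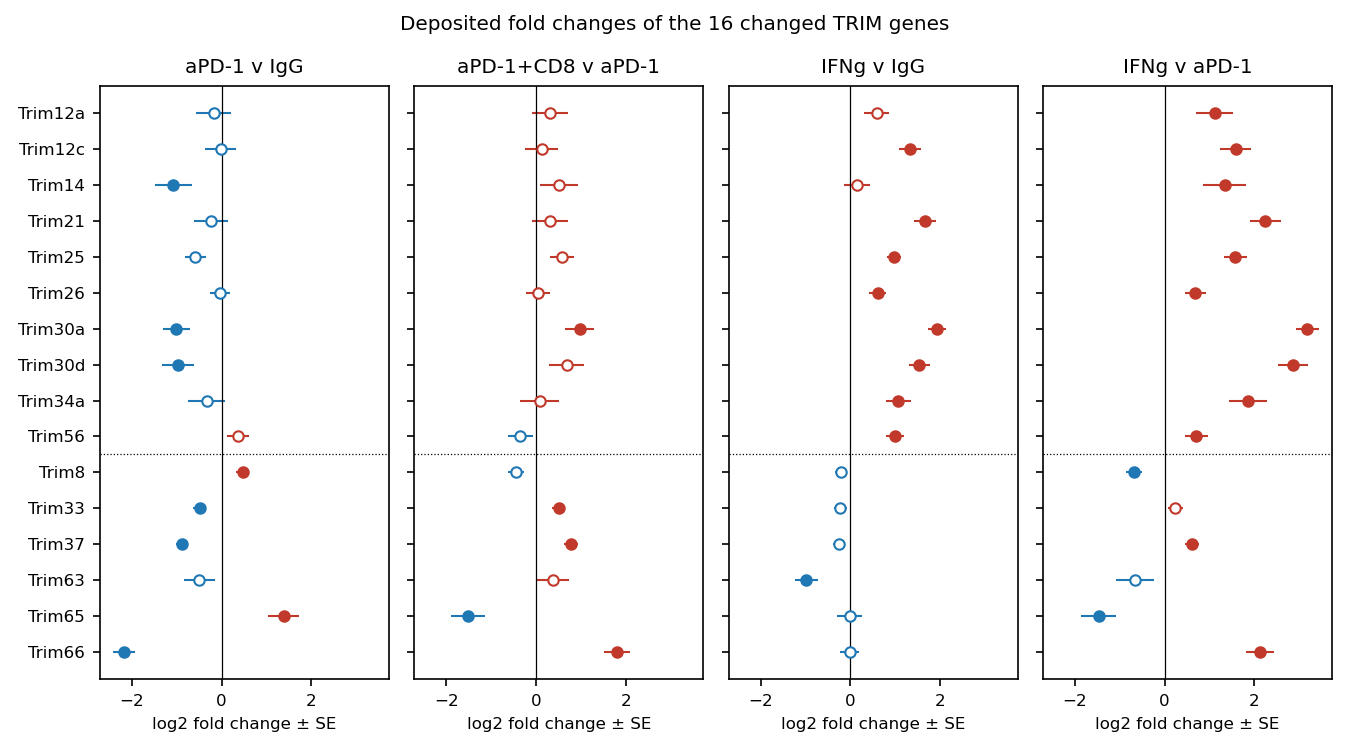
Log2 fold change ± SE (x axis, the group named first over the second, from the authors' deposited tables) of the 16 changed members in the 4 comparisons that made calls. Filled symbols passed an adjusted p of 0.05, open symbols did not, red is above 0 and blue below; Trim66 is at -2.18 in aPD-1 v IgG, 1.81 in aPD-1+CD8 v aPD-1 and 2.12 in IFNg v aPD-1.

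Adding the CD8 antibody to aPD-1 was compared with aPD-1 alone. Of 38 members tested, 4 were higher (Trim30a, Trim33, Trim37 and Trim66) and 1 was lower (Trim65) in aPD-1+CD8, against 7.82% higher, 6.94% lower and 14.8% changed of all 11560 genes tested. The members' 13.2% changed was near the background. Each of the 5 had changed the other way in aPD-1 against IgG, a comparison that shares the aPD-1 samples. Trim66 had a log2 fold change of 1.81 ± 0.28 and Trim65 of -1.52 ± 0.38 in the authors' deposited table (DESeq2 adjusted p = 9.7e-09 and 0.00092).

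Trim37 was at 0.79 ± 0.16, Trim33 at 0.51 ± 0.15 and Trim30a at 0.97 ± 0.32 in aPD-1+CD8 against aPD-1 in the authors' deposited table (DESeq2 adjusted p = 1.5e-05, 0.0074 and 0.024). Trim8 (-0.45 ± 0.17, DESeq2 adjusted p = 0.06), Trim25 (0.58 ± 0.26, DESeq2 adjusted p = 0.12) and Trim30d (0.68 ± 0.39, DESeq2 adjusted p = 0.27) missed the threshold in the authors' deposited table. With scores divided by their robust SD the adjusted p was 0.11 for Trim30a and 0.053 for Trim33. Fibroblast markers moved here as well, 3 of 7 tested being lower, with sums of 2827 in aPD-1+CD8 and 9689 in aPD-1. Of 13 macrophage markers tested, Mertk was higher, and of 20 ribosomal protein genes 6 were higher. Their part in the TRIM values was not tested.

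For aPD-1+CD8 against IgG, 0 of 48 members and 0 of 15304 genes passed DESeq2's adjusted p in the authors' deposited table, a share of 0.00%. At an unadjusted p under 0.05 there were 57 genes and 0 members. The deposited fold changes of this table were pulled strongly toward 0: members ranged from -0.17 (Trim2) to 0.14 (Trim46) in the authors' deposited table. The recovered levels, which carry no test, ranged from a log2 ratio of -0.62 for Trim45 to 0.23 for Trim46 over the 30 members with a mean of at least 10, and 29 of the 30 were under 0.5 in size. In the same way 0.112% of 9862 genes had a recovered ratio over 1 in size. Trim45 had levels of 24.5 in aPD-1+CD8 and 37.6 in IgG. These ratios are relative to a centring on the deposited medians: with 1 scale for all tables the median of all genes for aPD-1+CD8 against IgG was -0.42, and that of the 30 members -0.40.

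**Figure D4:**
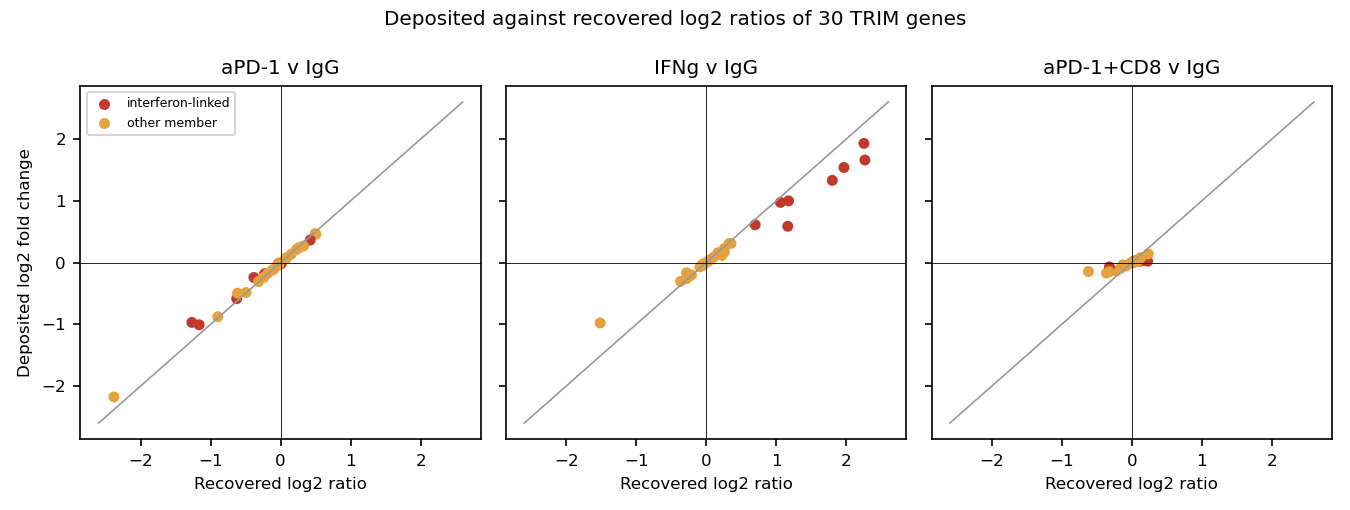
Log2 fold change in the authors' deposited tables (y axis) against the log2 ratio of recovered levels (x axis) for the 30 members whose means reached 10 in all tables, in 3 comparisons with IgG; the grey line marks equal values. Points with large ratios lie nearer to 0 than the line for IFNg v IgG, where Trim21 is at 2.27 on the x axis and 1.66 on the y axis, and all deposited values of aPD-1+CD8 v IgG lie between -0.17 and 0.14.

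IFNg against aPD-1 gave the most calls in the family, 12 higher and 2 lower of 41 members tested, against 8.39% higher, 7.13% lower and 15.5% changed of all 12260 genes. The higher members were 10 of the 11 interferon-linked members tested, along with Trim37 and Trim66, and the lower ones were Trim8 and Trim65. The median log2 fold change of the 11 interferon-linked members was 1.57 in the authors' deposited table, against -0.00 over all genes. Both groups of this comparison stand in others above, so its values add a contrast and not new samples.

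Trim30a had the largest fold change of the family here, 3.18 ± 0.26 in the authors' deposited table (DESeq2 adjusted p = 3.8e-32), with a recovered level 10.7-fold higher in IFNg than in aPD-1. Trim30d followed at 2.85 ± 0.33, Trim21 at 2.24 ± 0.34 and Trim34a at 1.85 ± 0.42 in the authors' deposited table (DESeq2 adjusted p = 6.5e-16, 3e-09 and 0.00021). Trim12c and Trim25 were at 1.58 ± 0.34 and 1.57 ± 0.26 in the authors' deposited table (DESeq2 adjusted p = 6.7e-05 and 5.6e-08). Trim12a (1.11 ± 0.41) and Trim14 (1.34 ± 0.49) passed here, though not against IgG, at DESeq2 adjusted p = 0.043 and 0.04 in the authors' deposited table. Whether their change differs between the 2 comparisons was not tested.

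Trim26 (0.69 ± 0.23) and Trim56 (0.70 ± 0.26) were the smallest interferon-linked rises, at DESeq2 adjusted p = 0.025 and 0.043 in the authors' deposited table. With scores divided by their robust SD of 1.25, Trim12a, Trim14, Trim26 and Trim56 no longer passed (adjusted p = 0.19, 0.18, 0.14 and 0.19). Trim6, which has a low mean count, was at 0.71 ± 0.49 in the authors' deposited table (DESeq2 adjusted p = 0.39). Among the members outside the interferon-linked list, Trim66 was at 2.12 ± 0.31, Trim37 at 0.61 ± 0.16, Trim65 at -1.47 ± 0.40 and Trim8 at -0.68 ± 0.18 in the authors' deposited table (DESeq2 adjusted p = 3.1e-10, 0.0024, 0.0027 and 0.002). For Trim65 and Trim66 the IFNg and IgG levels were almost equal, and the fold changes in IFNg against IgG were -0.01 ± 0.28 and -0.02 ± 0.22 in the authors' deposited table. Fibroblast markers were lower in IFNg for 5 of 7 tested, with summed levels of 2926 in IFNg and 9689 in aPD-1. Of 12 macrophage markers tested, C1qc was higher and Mrc1 lower in IFNg, and 1 of 20 ribosomal protein genes was higher. Their part in the TRIM values was not tested.

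By C-terminal class, SPRY members were the largest group, with members without a RING domain, such as Trim14, counted apart. In IFNg against IgG 7 of the 19 tested were higher, against 2.73% of all genes, and in IFNg against aPD-1 8 of 19 were higher and 1 was lower, against 8.39% and 7.13% of all genes. Of the 4 PHD finger and bromodomain members, Trim33 and Trim66 were lower in aPD-1 than in IgG and Trim24 and Trim28 were not called in any table. The levels of Trim28 were 1004 in IFNg, 791 in aPD-1+CD8, 854 in aPD-1 and 801 in IgG. The 4 members with NHL repeats (Trim2, Trim3, Trim32 and Trim71) were not called in any table. Of the 33 members that neither changed nor stand in the interferon-linked list, the 23 tested in aPD-1 against IgG had deposited fold changes between -0.31 (Trim27) and 0.46 (Trim47), and the 23 tested in IFNg against IgG between -0.31 (Trim2) and 0.33 (Trim69), in the authors' deposited table. In IFNg against aPD-1 the 24 tested ran from -0.42 (Trim47) to 0.87 (Trim69) in the authors' deposited table, with a lowest DESeq2 adjusted p of 0.089.

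Some unchanged members had high counts, which makes their intervals narrow; these examples were chosen for that after their values were seen. Trim23, which carries an ARF GTPase domain, had levels of 566 in IFNg, 504 in aPD-1+CD8, 541 in aPD-1 and 588 in IgG. In IFNg against IgG its log2 fold change was -0.05, with a 95% interval of -0.33 to 0.23 in the authors' deposited table. Trim39, which lies near Trim26 on chromosome 17, had levels of 181 in IFNg, 179 in aPD-1+CD8, 188 in aPD-1 and 178 in IgG. Its interval in IFNg against IgG was -0.34 to 0.37 in the authors' deposited table, where that of Trim26 was 0.23 to 0.99. Trim44, a member without a RING domain, had levels of 411 in IFNg, 547 in aPD-1+CD8, 492 in aPD-1 and 501 in IgG, and Trim41 had levels of 560.2, 572, 676 and 578 in those groups. Trim28 had an interval of 0.04 to 0.57 in IFNg against IgG in the authors' deposited table, which leaves out 0, and a DESeq2 adjusted p of 0.29.

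TRIM proteins that carry other names moved as well. Pml (TRIM19), the organiser of nuclear bodies, had levels of 216 in IFNg, 104 in aPD-1+CD8, 44.6 in aPD-1 and 106 in IgG. Its log2 fold change was 0.91 ± 0.18 in IFNg against IgG and -1.13 ± 0.25 in aPD-1 against IgG in the authors' deposited table (DESeq2 adjusted p = 5.1e-05 and 9.6e-05). Mid2 (TRIM1), a microtubule-bound ligase, was lower in both, at -0.89 ± 0.18 and -1.02 ± 0.14 in the authors' deposited table (DESeq2 adjusted p = 2.8e-05 and 2.8e-11). Its levels were 538 in IFNg, 900 in aPD-1+CD8, 524 in aPD-1 and 1079 in IgG.

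The RNA and DNA sensors and their adaptors, on which Trim14, Trim25, Trim56 and Trim65 act, held 4 of 13 genes higher in IFNg than in IgG (Ddx58, Dhx58, Ifih1 and Irf7) and 0 lower, against 2.73% and 1.38% of all genes. In aPD-1 against IgG the same 4 were lower, and Ikbke was higher, against 10.0% and 8.50% of all genes. Ifih1, the Mda5 target of Trim65, had levels of 763 in IFNg, 268 in aPD-1+CD8, 92.0 in aPD-1 and 268 in IgG. Its log2 fold change in aPD-1 against IgG was -1.46 ± 0.19 in the authors' deposited table (DESeq2 adjusted p = 1.1e-12), where Trim65 was higher. Ddx58, the Rig-I target of Trim25, was at -0.82 ± 0.21 in aPD-1 against IgG in the authors' deposited table (DESeq2 adjusted p = 0.0012).

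Of 18 antiviral effectors, 17 were higher in IFNg than in IgG and 17 were lower in aPD-1 than in IgG, against 2.73% and 10.0% of all genes tested. Of the interferon-linked TRIM members tested, 8 of 11 were higher in IFNg than in IgG and 3 of 10 were lower in aPD-1 than in IgG, and the difference between these lists was not tested. The median log2 fold change of the effectors was 1.496 in IFNg against IgG and -1.61 in aPD-1 against IgG in the authors' deposited table. For the interferon-linked TRIM members the medians were 0.999 and -0.29 in the authors' deposited table. In aPD-1+CD8 against aPD-1, 11 of the 18 effectors were higher and 0 were lower, against 7.82% and 6.94% of all genes. Among interferon receptors and transcription factors, Irf1 was at 2.48 ± 0.14 in IFNg against IgG in the authors' deposited table (DESeq2 adjusted p = 1.9e-62). In aPD-1 against IgG, Ifnar1, Ifngr1, Jak2 and Irf1 were higher, while Irf9 and Usp18 were lower.

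Uba7 and Ube2l6, the activating and conjugating enzymes for Isg15, were both higher in IFNg than in IgG. Uba7 had a log2 fold change of 1.87 ± 0.24 and Ube2l6 of 1.65 ± 0.25 in the authors' deposited table (DESeq2 adjusted p = 1.1e-12 and 4.9e-09). Of 14 partners of Trim28 in gene silencing, 0 passed in IFNg against IgG. In aPD-1 against IgG, Chd3 and Setdb1 were higher and Cbx5, Dnmt1 and Uhrf1 were lower, against 8.50% and 10.0% of all genes tested. Chd3 was at 1.16 ± 0.17 in the authors' deposited table (DESeq2 adjusted p = 6.1e-10).

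Trim30a changed in 4 tables, more than any other member. The genes outside the family whose 5 test scores lay nearest to it, by Euclidean distance among 14097 genes, were Ifi203 (1.43), Dtx3l (1.66) and Ifi204 (1.85). Ifi203 had levels of 212 in IFNg, 27.97 in aPD-1+CD8, 8.92 in aPD-1 and 30.7 in IgG. Dtx3l, itself an E3 ubiquitin ligase, had levels of 679.8 in IFNg, 244 in aPD-1+CD8, 128 in aPD-1 and 230.4 in IgG. The 5 scores share samples, so this likeness rests on 4 groups.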

How the data were processed

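RNA of 12 samples in 4 groups was compared in 5 tables made with DESeq2 on genome build mm9, per the submitters' processing notes. The DESeq2 version, aligner, counting and strand use were not given in the sources used here. The tables deposited by the authors hold, per the file headers, a mean normalized count (a signal value, the mean over both groups), a log2 fold change and its SE, the Wald score, and a p-value before and after adjustment. Columns of single samples numbered 0, so no count model was refitted and no replicate was left out. Calls use the deposited adjusted p under 0.05 over all genes of a table.

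Group levels were solved from the 5 means by least squares. With 1 scale the equations disagreed by over 0.1% for 5233 of 5706 genes with means of at least 100; with a scale for each table, added after seeing the data and centred on the deposited medians, for 406. Levels under 1 gave no ratio. Levels carry no error or test.

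Members were described where they changed in at least 1 table or stand in the interferon-linked list. The members and the gene lists were chosen with earlier results of these data known. For each pathway list, at most 2 genes per direction with the smallest p are named, and some list results are not reported here. Shared 50-base windows and exon overlaps came from GENCODE M21, promoters and gene order from RefSeq. Scripts ran in Python 3.11.15 with pandas 2.3.3, numpy 2.4.6, scipy 1.17.1 and matplotlib 3.10.9, and the steps were tested on simulated data. Alternatives were a threshold of 0.01, a minimum log2 change of 1, no filter or a minimum mean of 10, and scores over their robust SD. Another left out the members listed with a close copy, among them Trim30a and Trim30d.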

Additional observations from a re-analysis of the deposited data

How the results depend on the processing

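Of 36 member calls, 24 held under every alternative p rule tried. These rules were a threshold of 0.01, no filter on low counts, a minimum mean of 10, and scores over their robust SD. The direction of a call was taken from the deposited log2 fold change in every alternative, so it could not change. Members higher in aPD-1 than in IgG numbered 2, and 1 with a threshold of 0.01, a log2 change of at least 1, scores over their robust SD, or a recovered log2 ratio of at least 1. Members lower there numbered 6, with 3 at a log2 change of at least 1 and 2 with robust scores. They numbered 4 at a threshold of 0.01, with no filter on low counts or at a recovered ratio of at least 1. Without the members listed with a close copy they also numbered 4. Members higher in aPD-1+CD8 than in aPD-1 numbered 4, with 1 at a log2 change of at least 1, and 2 with robust scores or a recovered ratio of at least 1. At a threshold of 0.01, or without the members listed with a close copy, they numbered 3. Members higher in IFNg than in IgG numbered 8, with 7 at a threshold of 0.01, no filter on low counts or a recovered ratio of at least 1. They numbered 5 at a log2 change of at least 1 and 4 without the members listed with a close copy. The 1 lower member gave 0 at a log2 change of at least 1, its value being -0.98. Members higher in IFNg than in aPD-1 numbered 12. They numbered 8 at a threshold of 0.01 or with robust scores, and 7 without the members listed with a close copy. With no filter on low counts, or at a log2 or recovered change of at least 1, they numbered 9. The 2 lower gave 1 at a log2 or recovered change of at least 1. Over all genes, robust scores left 533 higher and 633 lower in aPD-1 than in IgG (1022 and 1207 as deposited), 519 and 442 in aPD-1+CD8 against aPD-1 (904 and 802), and 605 and 458 in IFNg against aPD-1 (1029 and 874). With 1 scale for all tables, the median recovered log2 ratio of members was -0.19 for aPD-1+CD8 against aPD-1 and -0.40 against IgG, and -0.18 and -0.40 from the 3 tables without IFNg, against 0.14 and 0.02 with a scale for each table; 1 scale also moved the median of all genes to -0.42 for aPD-1+CD8 against IgG, so a level of that group holds relative to this centring. No paired analysis was possible because the tables hold no value for a single sample and the labels give no replicate numbers shared by the groups. For the same reason leaving out a replicate and another normalization were not run.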
